A study of Mus musculus with 45 samples.

Results

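The cytosolic ribosomal proteins are the protein parts of the ribosome that translates messenger RNA in the cytoplasm. Their genes were taken from the deposited count table by symbol: a name that starts with Rpl or Rps followed by a number, by p0 to p2 or by a, with no pseudogene suffix. The S6 kinases and the paralogue-like, retrogene and binding-protein symbols were left out, and a gene was kept when it held at least 100 counts in each of the 45 libraries. Of 28454 listed genes, 254 matched the name pattern. Of these, 153 were pseudogenes, 9 were kinases, 13 were paralogue-like symbols and 2, Rps3a2 and Rps3a3, were below the count minimum. That left 77 members, 31 of the small (40S) subunit and 46 of the large (60S) subunit, the latter including the 3 proteins of the P-stalk. Just inside the minimum stood Rpl29 with 402 to 801 counts, and just outside stood Rps3a2 with 48 to 148 counts and Rps3a3 with 2 to 22 counts. Fau and Rack1, which also give ribosomal proteins, do not match the pattern and are described apart.

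The libraries are polyadenylated mRNA from mouse mammary tumour cell lines of MMTV-cMYC mice, in which a mammary tumour virus promoter drives the MYC oncogene in the mammary epithelium. MYAZ16.1e, MYAZ12.3i and MYAZ6.6g are lines of mammary tumours, and Myc310 is a single line of a mouse with multiple tumours, with no biological replicate. LM1, LM2 and LM3 were recovered from lungs after Myc310 cells were injected into the mammary fat pad, and LM1-LM from lungs after injection of LM1 cells, with LM2-LM and LM3-LM as its biological replicates, so the LM and LM-LM lines trace back to a single tumour line. Each of the 10 lines has 3 cultures in control medium. Of these lines, MYAZ16.1e, Myc310, LM1 and the lung-derived LM1-LM also have 3 cultures each after 6 h in medium free of cysteine and cystine, and a MYAZ12.3i line labelled NDI1, the name of a yeast mitochondrial NADH dehydrogenase, has 3 cultures in control medium. Every culture was seeded at 250000 cells per well and grown in the same medium with serum, insulin, hydrocortisone and EGF, and the medium was changed after 24 h. The 3 cultures of a line are technical replicates in the series' own terms, so the p-values for deprivation and for NDI1 measure the spread between cultures of a line. Those between subtypes pool the spread between cultures with that between the lines of a subtype.

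Each library held 19517859 to 29019988 counts (median 22899900), and the members took 5.32% to 6.27% of them (median 5.78%). The lowest member, Rpl29, had a median of 632 counts and the highest, Rplp0, 55926, so counting error weighs most on Rpl29. Of 9 epithelial markers only Krt8, Krt18 and Krt19 passed 1 CPM (the count of a gene relative to the TMM-scaled library total) in any library, while Epcam, Cdh1, Cldn3, Cldn4, Cldn7 and Esrp1 stayed below it. Of 7 leukocyte markers found, Cd68 (2.70 to 18.7 CPM) and Itgam (at most 1.33) passed it, while Ptprc stayed at 0.233 CPM or less, and of 8 endothelial markers Egfl7 (5.64 to 19.3) and Kdr (at most 6.36) passed it, while Pecam1 stayed at 0.246 or less. Of 6 alveolar markers Abca3 (9.30 to 69.5) and Ager (at most 1.97) passed it, while Sftpc stayed at 0.0758 or less. The summed alveolar list was higher in control cultures of the Myc310 lineage (43.6 to 69.9 CPM) than in those of the MYAZ lines (11.3 to 30.6 CPM). So was the leukocyte list (9.53 to 19.7 against 4.17 to 6.31 CPM). The part of both in the differences between subtypes was not tested. The summed level of the fibroblast list ran from 1.73 to 218 CPM, most of it Col3a1 in LM3-LM. In bulk RNA, fewer cells of a kind and less RNA per cell cannot be told apart.

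Per kilobase of coding sequence, Rpl41 stood highest with a median over the libraries of 9797 CPM per kb, ahead of Rplp1 (3392), Rpl13a (2833) and Rplp0 (2634), and Rpl29 (57.4) and Rps2 (228) stood lowest. Coding length leaves out the untranslated parts, which count most in the shortest mRNAs, and reads of Rps2 are shared with a pseudogene. Per kilobase of annotated transcript the order changed. Rplp1 then stood highest at 2325 CPM per kb, ahead of Rps12 (1989), Rplp0 (1845) and Rpl13a (1841). Rpl41 stood at 1396, and Rpl29 was again lowest (38.8). The counts on 60S members stood to those on 40S members as 1.69 ± 0.00742 (SD, n = 3) to 1 in MYAZ16.1e in control medium and as 1.61 to 1 in LM3 and LM3-LM, and between 1.53 and 1.55 in the other 7 lines.

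A ribosome needs a single copy of nearly every ribosomal protein, so cells keep their synthesis in step, and MYC raises the whole set together with the factors that assemble ribosomes. In vertebrates most of these mRNAs start with a C followed by an unbroken run of pyrimidines, the 5′ terminal oligopyrimidine (TOP) tract, through which LARP1 holds their translation back and shields the mRNAs when amino acids are scarce and mTOR, which otherwise promotes their translation, is less active. Withdrawal of an amino acid also starts the ATF4 response. Here the mRNAs of all 8 listed ATF4-pathway genes rose in every line, with Chac1, a glutathione-degrading enzyme, up by 5.81 to 6.41 on the log2 scale. Of all genes tested, 19.3% were higher in all 4 lines, and the list was chosen with earlier results of these data known.

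After 6 h of cysteine/cystine deprivation 57.1% of the members were lower in MYAZ16.1e, where 27.1% of all genes tested were, with Rpl37a and Rpl11 the furthest, and their median was slightly below 0. In Myc310, LM1 and LM1-LM members moved in both directions and the median was near 0. Rpl41 fell furthest in each of these lines, and the largest rise was that of Rpl13a in Myc310 and LM1 and of Rps20 in LM1-LM. The start sites of members of both kinds are shown first, because the pyrimidine run is the sequence feature by which these mRNAs are known. Each line gives 10 bases before and 20 bases from the transcript start listed by RefSeq on GRCm38.p6, 5′ to 3′ on the gene's strand, and capitals mark the longest unbroken run of C or T that covers the listed start or comes within 5 bases of it on either side. Of the first 6, Rpl13a and Rpl12 rose in all 4 lines and Rps6, Rps15a, Rps3 and Rpsa in all but MYAZ16.1e, and the other 7 fell in all 4 lines. Both kinds are shown with long and with short runs.
Rpl13a, chr7:45128726-45128755, minus strand: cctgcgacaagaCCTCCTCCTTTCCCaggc
Rpl12, chr2:32961702-32961731, plus strand: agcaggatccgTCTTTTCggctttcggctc
Rps6, chr4:86857348-86857377, minus strand: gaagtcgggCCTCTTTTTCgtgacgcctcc
Rps15a, chr7:118116128-118116157, minus strand: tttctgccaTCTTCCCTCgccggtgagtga
Rps3, chr7:99483690-99483719, minus strand: aagggTCgccgcgctgcgcggcgtcattgc
Rpsa, chr9:120127756-120127785, plus strand: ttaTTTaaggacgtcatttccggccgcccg
Rpl41, chr10:128549149-128549178, minus strand: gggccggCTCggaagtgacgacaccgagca
Rps15, chr10:80292421-80292450, plus strand: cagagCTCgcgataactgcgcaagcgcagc
Rpl37a, chr1:72711250-72711279, plus strand: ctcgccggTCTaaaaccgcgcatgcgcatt
Rpl11, chr4:136053374-136053403, minus strand: ccataaggCCacggggccggaagtctccct
Rpl38, chr11:114668570-114668599, plus strand: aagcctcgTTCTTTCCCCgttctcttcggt
Rps10, chr17:27635225-27635254, minus strand: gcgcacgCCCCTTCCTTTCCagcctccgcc
Rpl27a, chr7:109519185-109519214, plus strand: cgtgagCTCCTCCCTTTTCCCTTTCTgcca

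Among these rises the run was 14 bases long in Rpl13a, 7 in Rpl12, 10 in Rps6 and 9 in Rps15a, but 2 in Rps3 and 3 in Rpsa. Among the falls it was 3 in Rpl41, 3 in Rps15, 3 in Rpl37a and 2 in Rpl11, but 10 in Rpl38, 13 in Rps10 and 20 in Rpl27a. Of the 17 members with a window that fell in all 4 lines, 5 held a run of at least 8 bases, the longest being 21 in Rpl7a, as did 9 of the 16 that rose in at least 3 lines. A run says only that these letters stand in this window: for each gene shown the start that RefSeq lists is not the gene start of GENCODE, and the start used in these cells was not measured. RefSeq windows were found for 57 of the 77 members, in 67 windows. A run of at least 8 pyrimidines stood in 22 of these windows (32.8%), against 9.72% of all 32851 promoter windows, and in 3 of 11 windows of other mRNAs known to carry a TOP tract.

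The deprivation model held the 24 libraries of the 4 lines, with line and medium as groups, and 13400 genes were tested. By the quasi-likelihood test of edgeR, with p-values adjusted over all genes after Benjamini and Hochberg and a threshold of 0.05, 2 members were higher and 44 lower in MYAZ16.1e, where 26.6% of all genes tested were higher and 27.1% lower. Without replicate 3 of the MYAZ16.1e control cultures, 6 were higher there (all genes 23.7%). In Myc310, 24 members were higher and 22 lower (all genes 32.8% and 33.9%). In LM1, 32 were higher and 23 lower (35.8% and 35.3%), and in LM1-LM 32 were higher and 25 lower (36.5% and 35.9%). Series of 4 values are given below in this order of the lines. The median log2 fold change of the 77 members was -0.08, 0.00, 0.03 and 0.02, where the median of all genes tested was 0.00, -0.01, 0.00 and 0.00. The changes were small: Rpl41 and Rps15 in LM1-LM were the members whose level moved by more than 1.5-fold in any line, and 1, 4, 6 and 12 members past the threshold moved by more than 1.2-fold, as did 32.6%, 50.2%, 57% and 58.8% of all genes tested. The interquartile range of the members' log2 fold changes was 0.13, 0.17, 0.23 and 0.24, against 0.46, 0.74, 0.91 and 0.96 for all genes.

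**Figure D1:**
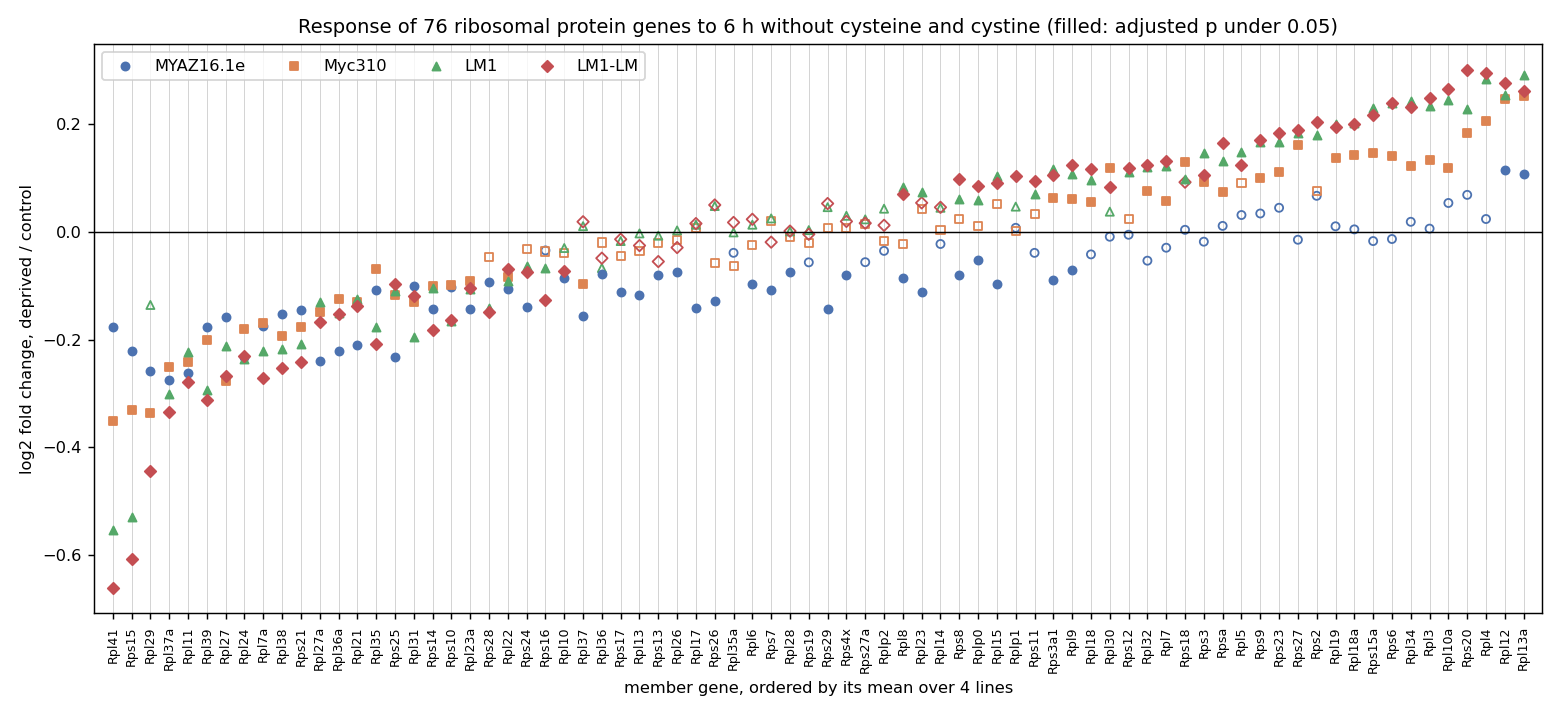
Log2 fold change of each of 76 members under deprivation of cysteine and cystine, with 1 colour for each of the 4 lines, members ordered by their mean over the lines and filled points for an adjusted p under 0.05. The lowest points are Rpl41 and Rps15, down to -0.66 and -0.61 in LM1-LM, and the highest are near 0.30.

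How many members were called higher or lower depended on the scaling of the libraries. With upper-quartile scaling, 17 members were higher and 35 lower in LM1 (all genes 31.6% and 39.6%), and 16 and 39 in LM1-LM (32% and 40.3%). With the total count alone as the scale, 12 were higher and 45 lower in either line (29.4% and 42% of all genes in LM1, 29.6% and 43% in LM1-LM). Scaling by the total also moved the median of all genes, by -0.12 in LM1 and -0.13 in LM1-LM. The distance between the members' median and that of all genes hardly moved with the scaling. Over the scalings tried it lay from -0.08 to -0.07 in MYAZ16.1e, at 0.01 in Myc310, at 0.03 in LM1 and, in LM1-LM, from 0.01 to 0.02. The share of all counts that fell on the members went from 5.87% ± 0.0134 (SD, n = 3) to 5.60% ± 0.0421 in LM1, from 5.91% ± 0.101 to 5.57% ± 0.0809 in LM1-LM, from 5.85% ± 0.118 to 5.68% ± 0.0979 in MYAZ16.1e and from 5.81% ± 0.0465 to 5.75% ± 0.0369 in Myc310. A scaling shifts all members of a line almost alike, so their order within the set hardly depends on it. Relative to the members' own median, 28 lay below it in all 4 lines, 29 above it in all 4, and 20 were mixed.

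Of the small subunit, no member was higher and 15 of 31 were lower in MYAZ16.1e, 11 were higher and 5 lower in Myc310, 15 and 8 in LM1 and 14 and 8 in LM1-LM. Over all genes tested 26.6% were higher and 27.1% lower in MYAZ16.1e, 32.8% and 33.9% in Myc310, and between 35.3% and 36.5% in either direction in LM1 and LM1-LM, and these shares stand for the counts of a single line below. Rps15 (ENSMUSG00000063457, chromosome 10, 80292453 to 80294114, plus strand, GRCm38), which the pre-40S particle needs to leave the nucleus, fell furthest of them in Myc310, LM1 and LM1-LM. In MYAZ16.1e its level was 564, 546 and 572 CPM in the control cultures and 463, 499 and 488 CPM in the deprived ones. In LM1 it went from 631, 632 and 636 CPM to 430.1, 425 and 428 CPM, and in LM1-LM from 655, 629 and 651 CPM to 409, 426 and 403 CPM. In Myc310 it went from 630.5, 631 and 620.4 CPM to 507, 509 and 496 CPM, and in each of the 4 lines every deprived culture lay below every control culture. The log2 fold changes of Rps15 in the 4 lines were -0.22 ± 0.0252 (SE, n = 3 and 3, adjusted p = 1.1e-08, edgeR), -0.33 ± 0.0252 (8.2e-13), -0.53 ± 0.0254 (7.2e-18) and -0.61 ± 0.0253 (2.1e-19). By the edgeR model, whose scale differs from that of the CPM above, the level of Rps15 changed by -34.3% in LM1-LM and by -14.2% in MYAZ16.1e.

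Rps10, Rps14, Rps21 and Rps25 also fell in all 4 lines. Rps25, used by some viral internal ribosome entry sites, differed from Rps15 in its order: its log2 fold changes were -0.23, -0.12, -0.11 and -0.10, so that MYAZ16.1e moved most. Rps14, whose loss underlies the human 5q- syndrome, fell by 0.10 to 0.18, and its call was lost in MYAZ16.1e, LM1 or Myc310 when particular cultures were left out. Rps28 fell in MYAZ16.1e, LM1 and LM1-LM but not past the threshold in Myc310 (-0.05).

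The S6 kinase substrate Rps6 (chromosome 4, 86854660 to 86857412, minus strand) did the opposite in 3 lines. Its control cultures in LM1 stood at 1134, 1153 and 1178 CPM and its deprived cultures at 1333, 1312 and 1349 CPM. In LM1-LM they stood at 1199.6, 1158 and 1179 CPM and 1373, 1351 and 1344 CPM, and in Myc310 at 1101, 1105 and 1116 CPM and 1245, 1226 and 1227 CPM. The groups did not overlap in these lines, whereas in MYAZ16.1e they did, at 1161, 1142 and 1160.3 CPM against 1144, 1168 and 1133 CPM. The log2 fold change of Rps6 was 0.14 ± 0.0199 (adjusted p = 2.7e-07, edgeR) in Myc310, 0.24 ± 0.0199 (4.2e-12) in LM1, as well as 0.24 ± 0.0199 (3.9e-12) in LM1-LM, and -0.01 ± 0.0199 (0.62) in MYAZ16.1e. Rps20 (0.18, 0.23 and 0.30), Rps15a (0.15, 0.23 and 0.22), Rps9, Rps23, Rps27 (0.16, 0.18 and 0.19), Rps3, a protein of the mRNA entry channel, and Rpsa, also known as a laminin receptor, rose in the same 3 lines and did not pass the threshold in MYAZ16.1e. Rps3a1 rose in these 3 and fell in MYAZ16.1e. The rises of Rpsa and Rps3 in LM1 and LM1-LM, 0.11 to 0.17, did not pass the threshold when libraries were scaled by their total, and for Rps3 in LM1-LM the sign turned. Rps19, the gene most often mutated in Diamond-Blackfan anaemia, and Rps27a, made as a fusion with ubiquitin, passed the threshold in no line, with log2 fold changes between -0.06 and 0.02. Rps29 fell in MYAZ16.1e (-0.14) and Rps4x in MYAZ16.1e (-0.08), and neither passed the threshold in another line.

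**Figure D2:**
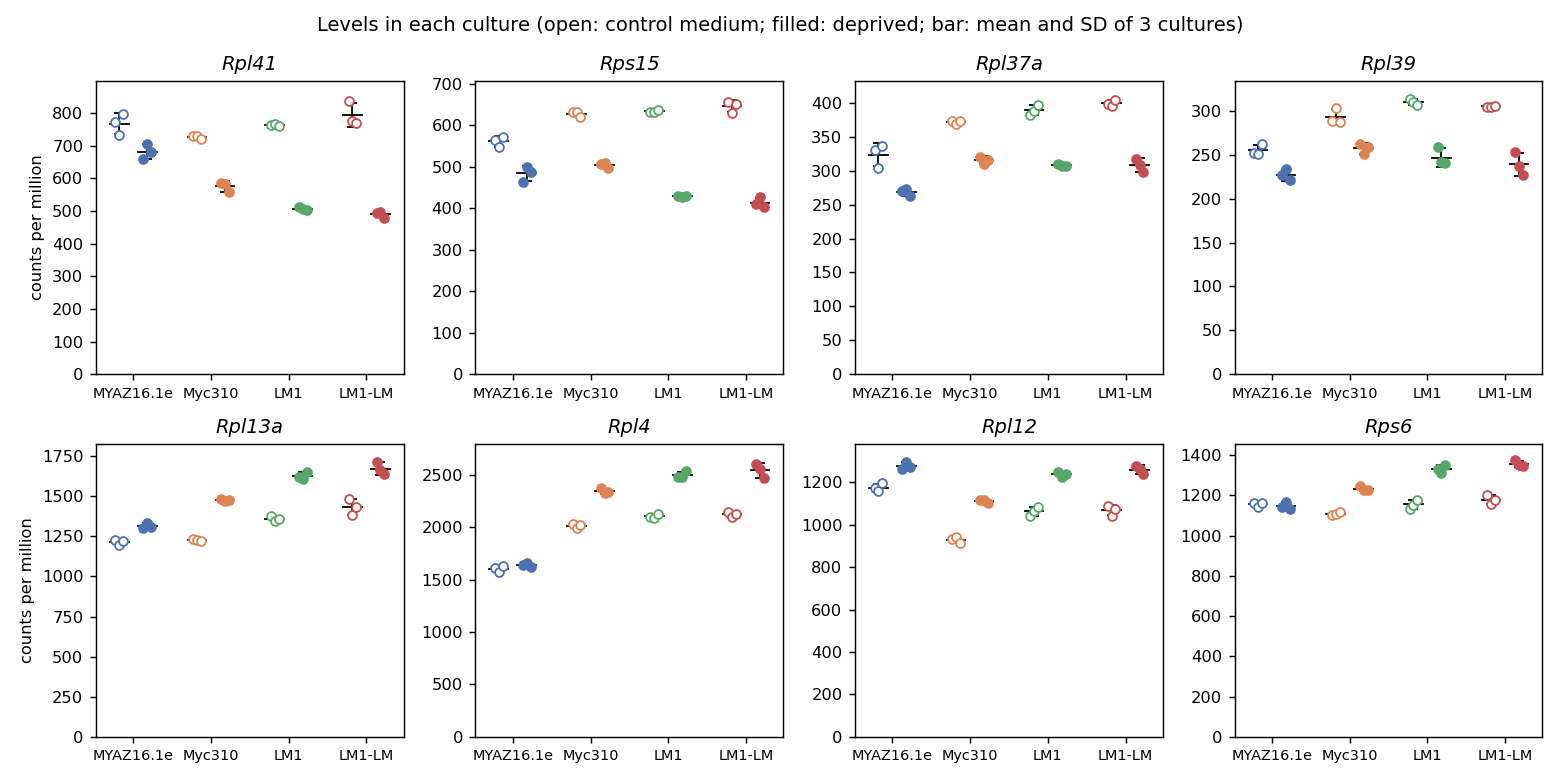
Level in CPM (TMM-scaled) of Rpl41, Rps15, Rpl37a, Rpl39, Rpl13a, Rpl4, Rpl12 and Rps6 in each culture of the 4 lines, open circles for control medium and filled circles for medium without cysteine and cystine, with the mean and SD of 3 cultures. Rpl41 and Rps15 lie lower in every deprived group, down to 479 and 403 CPM in LM1-LM, while Rpl13a and Rpl12 lie higher in every deprived group.

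Of the large subunit, 2 of 46 members were higher and 29 lower in MYAZ16.1e, 13 and 17 in Myc310, 17 and 15 in LM1 and 18 and 17 in LM1-LM. In Myc310, LM1 and LM1-LM these are 28.3% to 39.1% of the 46 members, close to the shares over all genes. Rpl41 (ENSMUSG00000093674, chromosome 10, 128548114 to 128549305, minus strand) encodes the smallest protein of the set, with 25 codons, which sits between the subunits. Its level was 773, 735 and 797 CPM in control and 661, 706 and 681 CPM in deprived MYAZ16.1e cultures, and 731, 729.8 and 721 CPM and 586, 584 and 558 CPM in Myc310. In LM1 it went from 764, 767 and 760.3 CPM to 512, 507 and 504 CPM, and in LM1-LM from 838, 775 and 772 CPM to 493, 497 and 479 CPM. The groups did not overlap in any of the 4 lines, and the distance between them was widest in LM1-LM. The log2 fold change of Rpl41 was -0.18 ± 0.0296 (adjusted p = 7.4e-06, edgeR), -0.35 ± 0.0297 (9e-12), -0.55 ± 0.0299 (1.4e-16) and -0.66 ± 0.0299 (1.5e-18) in the 4 lines. By this model its level changed by -11.6%, -21.6%, -31.9% and -36.7%.

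Rpl37a, a zinc-binding 60S protein, fell to a more even degree. It went from 330.5, 304 and 336 CPM to 269.6, 274 and 262 CPM in MYAZ16.1e and from 399, 395 and 405 CPM to 318, 309 and 298 CPM in LM1-LM. The groups did not overlap in either line, and the log2 fold change of Rpl37a was -0.28 ± 0.0291 (adjusted p = 2.4e-09, edgeR) and -0.34 ± 0.0288 (8.6e-12), with -0.25 and -0.30 in Myc310 and LM1. Rpl39, which lines the exit tunnel of the nascent chain, fell from 252, 251 and 262 CPM to 227, 233 and 221 CPM in MYAZ16.1e and from 305, 305 and 305 CPM to 253, 238 and 227 CPM in LM1-LM, log2 fold changes of -0.18 ± 0.0333 (4.5e-05) and -0.31 ± 0.033 (7.9e-10). The deprived cultures lay below the control cultures of Rpl39 in both lines.

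Rpl11, which with Rpl5 and the 5S rRNA forms a particle that can bind the p53 regulator Mdm2, went from 851, 776 and 826 CPM to 655, 715 and 684 CPM in MYAZ16.1e and from 822, 765 and 765 CPM to 631, 638 and 619.7 CPM in LM1-LM. Its log2 fold change was -0.26 ± 0.0308 (adjusted p = 1.8e-08, edgeR), -0.24, -0.22 and -0.28 ± 0.0309 (2.1e-09) in the 4 lines. Its partner Rpl5 did not share the fall, at 0.03 and 0.09 short of the threshold in MYAZ16.1e and Myc310 and 0.15 and 0.12 past it in LM1 and LM1-LM, the last 2 of which were lost with upper-quartile or total scaling. Rpl38, needed in mouse embryos for translation of Hox mRNAs, fell by 0.15, 0.19, 0.22 and 0.25. Rpl22 fell by 0.07 to 0.11, and Rpl36a by 0.12 to 0.22. Rpl21, Rpl23a, Rpl24, Rpl27, Rpl27a, Rpl31, Rpl35 and Rpl7a were the other 60S members that fell in all 4 lines, which brought the number of members lower in all 4 to 20, a pattern shown by 19% of all genes tested. Rpl29, the member with the fewest counts, fell in MYAZ16.1e, Myc310 and LM1-LM but not past the threshold in LM1 (-0.14, adjusted p = 0.089, edgeR).

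Rpl13a and Rpl12 were the 2 members that rose in all 4 lines, as 19.3% of all genes did. Rpl13a (chromosome 7, 45125558 to 45128761, minus strand), known for leaving the ribosome to silence inflammatory mRNAs in interferon-treated myeloid cells, went from 1229, 1198 and 1224 CPM to 1302, 1336 and 1309.9 CPM in MYAZ16.1e. In LM1 it went from 1375, 1348 and 1361 CPM to 1621, 1606 and 1651 CPM. The groups were apart in all 4 lines, with log2 fold changes of 0.11 ± 0.0223 (adjusted p = 0.00015, edgeR), 0.25 ± 0.0223 (2.4e-11), 0.29 ± 0.0223 (6.2e-13) and 0.26 ± 0.0223 (7.1e-12). Rpl12 (chromosome 2, 32961559 to 32965345, plus strand), at the base of the stalk, went from 1172, 1157 and 1195 CPM to 1263, 1297 and 1272 CPM in MYAZ16.1e and from 1089, 1042 and 1073 CPM to 1277, 1265 and 1239 CPM in LM1-LM, and its groups did not overlap in any line. Its log2 fold changes were 0.11 ± 0.0211 (3e-05), 0.25 ± 0.0212 (1.2e-11), 0.25 ± 0.0212 (4.5e-12) and 0.28 ± 0.0212 (5.7e-13).

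Rpl4 (chromosome 9, 64173375 to 64178666, plus strand), which reaches into the exit tunnel, rose in Myc310, LM1 and LM1-LM. It went from 2028, 1995 and 2021 CPM to 2372, 2329 and 2337 CPM in Myc310 and from 2151, 2099.9 and 2129 CPM to 2607, 2555 and 2468 CPM in LM1-LM, with no overlap, and overlapped in MYAZ16.1e at 1615, 1573 and 1630.2 CPM against 1641, 1657 and 1621 CPM. The log2 fold changes of Rpl4 were 0.02 ± 0.0204 (adjusted p = 0.34, edgeR), 0.21 ± 0.0203 (2.4e-10), 0.28 ± 0.0203 (1.4e-13) and 0.30 ± 0.0203 (4.4e-14). Rpl3, which lies close to the peptidyl transferase centre, rose by 0.13, 0.23 and 0.25 in these 3 lines, and Rpl10a by 0.12, 0.24 and 0.27. In all, 18 members of both subunits rose in Myc310, LM1 and LM1-LM and not past the threshold in MYAZ16.1e, a pattern shown by 7.78% of all genes. Rpl7 rose by 0.06, 0.12 and 0.13, and none of these 3 calls was kept with upper-quartile or total scaling. Rpl10, loaded late in the maturation of the 60S subunit, fell in MYAZ16.1e (-0.09) and LM1-LM (-0.07), and Rpl26, a regulator of p53 mRNA translation, in MYAZ16.1e (-0.07). Of the stalk proteins, which recruit the GTPases of translation, Rplp2 passed the threshold in no line, Rplp1 rose in LM1-LM (0.10), and Rplp0 fell in MYAZ16.1e (-0.05) and rose in LM1 (0.06) and LM1-LM (0.09); the rises of Rplp0 in LM1 and LM1-LM and of Rplp1 turned negative with total scaling.

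Counting cultures rather than tests, 2 members were higher and 38 lower in every deprived than in every control culture of MYAZ16.1e, where 29.7% and 29.2% of all genes were. The counts were 28 and 21 in Myc310 (34.9% and 34.5%), 28 and 30 in LM1 (34.9% and 38.5%) and 25 and 32 in LM1-LM (35.3% and 38.7%). The responses of the 77 members were alike in order across lines, which share no libraries here: Pearson's r over the 77 genes was 0.976 between LM1 and LM1-LM, 0.952 between Myc310 and LM1-LM, 0.940 between Myc310 and LM1, and 0.876, 0.819 and 0.830 between MYAZ16.1e and Myc310, LM1 and LM1-LM. These are descriptions across genes, which are not independent replicates, and Myc310, LM1 and LM1-LM are related by descent.

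Coding length and response were weakly related within the set. Over the 77 members, Spearman's rho between coding length and log2 fold change was 0.28, 0.34, 0.39 and 0.36 in the 4 lines, against 0.13, 0.06, 0.05 and 0.05 over the 11825 genes tested that had a coding length. The 26 members with a coding length under 400 bases had median log2 fold changes of -0.11, -0.06, -0.07 and -0.06, the 31 between 400 and 600 bases -0.07, 0.01, 0.01 and 0.00, and the 20 over 600 bases -0.04, 0.05, 0.11 and 0.10. Rpl41, with 75 coding bases, and Rpl39, with 153, belong to the first class, and Rpl4, with 1257, and Rpl3, with 1209, to the last. The spread within a class was wide: Rps20 rose among the shortest members and Rpl7a fell among the longest. Over the 57 members with a start window, rho between run length and log2 fold change was 0.23, 0.23, 0.23 and 0.22, and rho between coding length and log2 fold change was 0.38, 0.44, 0.44 and 0.43 over the same 57, and the 22 members with a run of at least 8 had medians of -0.04, 0.03, 0.07 and 0.07, against -0.09, -0.02, 0.00 and -0.03 for the 35 without one. The 30 members that carry a small nucleolar RNA gene within their bounds, such as Rpl13a and Rpl4, had medians of -0.05, 0.03, 0.07 and 0.09, and the 47 others -0.08, -0.02, 0.00 and 0.00. The part of transcript length in the polyA selection and counting of these libraries was not tested.

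**Figure D3:**
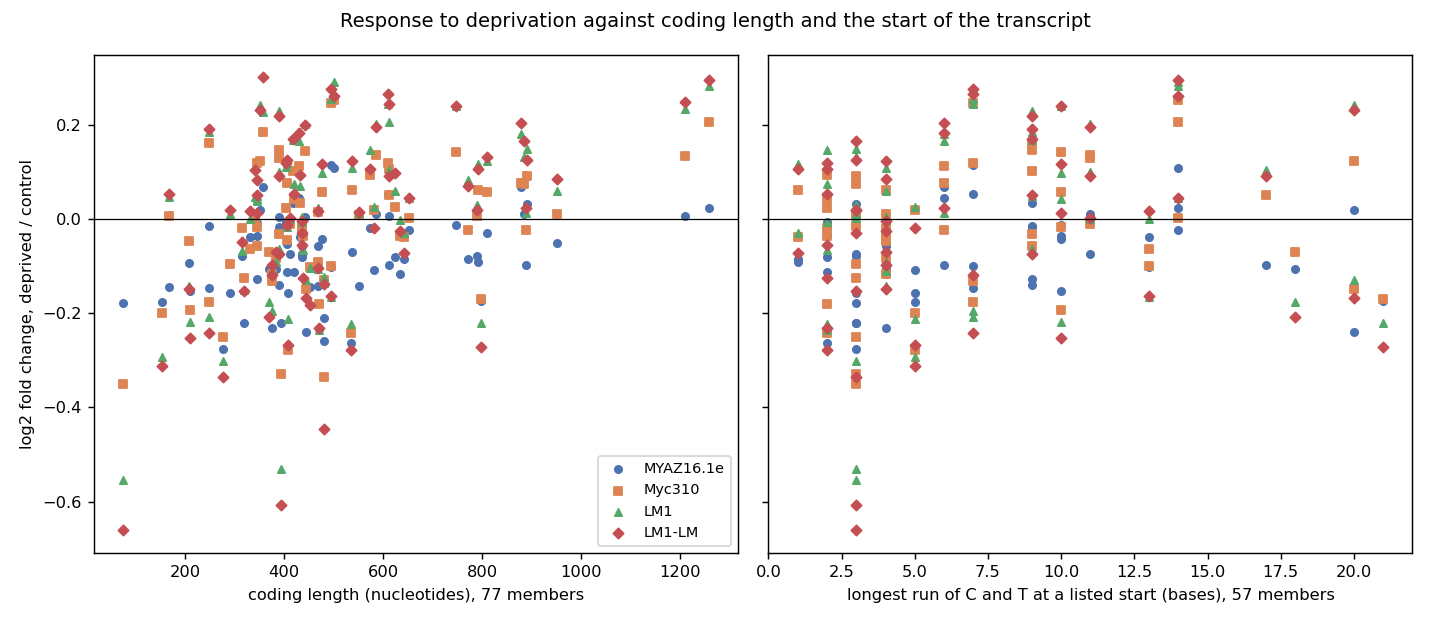
Log2 fold change after deprivation of the members against their coding length in bases (left, 77 members) and against the longest pyrimidine run at the listed start in bases (right, 57 members), with a colour for each of the 4 lines. The lowest points, Rpl41 and Rps15, have short coding sequences and runs of 3 bases, and points above 0 lie at all lengths, more of them over 600 bases.

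Genes that make or accompany the ribosome also moved in both directions. Beside the shares over all genes, 26.6% to 36.5% in either direction by line, the counts were as follows. Of 78 mitochondrial ribosomal protein genes, 8 were higher and 43 lower in MYAZ16.1e, 19 and 42 in Myc310, 22 and 42 in LM1 and 21 and 42 in LM1-LM, with medians of -0.16, -0.15, -0.19 and -0.18. Of 40 ribosome biogenesis factors, 7, 12, 13 and 14 were higher and 28, 25, 25 and 24 lower, with medians of -0.16, -0.21, -0.20 and -0.23. Nop10 and Nhp2, core proteins of the H/ACA particles that pseudouridylate ribosomal RNA, fell by 0.74 to 1.27 and by 0.56 to 1.06, and the ribosomal DNA factor Ubtf by 0.22, 0.66, 0.99 and 1.09. Others rose: Nop14 by 0.49 to 0.93 and Ltv1 by 0.29 to 0.85, both of the pre-40S particle, and Nmd3, the export adaptor of the pre-60S particle, by 0.33 to 0.74. Of 9 chaperones and carriers of ribosomal proteins, 6, 6, 3 and 3 were lower and 1, 2, 2 and 1 higher, and the Rpl3 chaperone Grwd1 fell by 0.48 to 0.93.

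Of 16 other mRNAs with a known TOP tract, 3 were higher and 10 lower in MYAZ16.1e, 7 and 7 in Myc310, 8 and 6 in LM1 and 9 and 6 in LM1-LM, with medians of -0.09, 0.01, 0.06 and 0.06, close to those of the members. The elongation factor Eef1a1 rose by 0.06, 0.30, 0.40 and 0.43 and Tpt1 by 0.06, 0.32, 0.40 and 0.43, while Eef1d fell by 0.33 to 0.78 and the nascent chain factor Naca by 0.22 to 0.25. Fau, a ubiquitin-like fusion that gives a 40S protein, rose by 0.10, 0.20, 0.23 and 0.24, and Rack1 passed the threshold in LM1 (0.06) and LM1-LM (0.07). Of 10 genes that control TOP mRNA translation, 6, 4, 6 and 6 were higher and 2, 3, 4 and 4 lower. Eif4ebp1, a repressor of cap-dependent translation, rose by 1.26 to 1.69, Sesn2 and Ddit4, inhibitors of mTOR complex 1, by 2.26 to 3.44 and by 1.92 to 2.41, and Larp1 fell by 0.14 in LM1 and 0.20 in LM1-LM. Of the 6 paralogue genes tested, 3 were lower and none higher in MYAZ16.1e, and 1 was lower and 2 higher in each of the other lines; Rpl7l1 fell in all 4, by 0.26 to 0.42.

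The difference between the response of a line and that of MYAZ16.1e was tested as an interaction; these 3 contrasts share the MYAZ16.1e libraries. Against MYAZ16.1e the response was higher for 25 members and lower for 2 in Myc310 (all genes 19.8% and 20.4%), higher for 39 and lower for 3 in LM1 (26.9% and 25.3%) and higher for 39 and lower for 7 in LM1-LM (28.4% and 26.4%). The median difference was 0.07, 0.11 and 0.10. Rpl4 led those with the higher response in each, by 0.18, 0.26 and 0.27, with Rps27 and Rps15a in Myc310 (0.18 and 0.16), Rps6 and Rps15a in LM1 (0.25 and 0.25) and Rps6 and Rpl3 in LM1-LM (0.25 and 0.24). Rpl41 led those with the lower response, by -0.17, -0.38 and -0.48, followed by Rps15 at -0.11, -0.31 and -0.39 and, in LM1 and LM1-LM, Rpl39 at -0.12 and -0.14. These counts depended on the scaling and on the cultures left out, with the ranges given at the end. With the total count as the scale, 11 were higher in Myc310 (all genes 15.5%), 4 higher and 19 lower in LM1 (18.1% and 35.5%) and 5 higher and 27 lower in LM1-LM (19.1% and 36.9%). The median of all genes moved by -0.05, -0.14 and -0.15. The members' median stood 0.08 to 0.10 above that of all genes under every scaling.

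In control medium the question was whether the members differ between the subtypes, which the authors order by metastatic potential. The authors counted lung metastases for MYAZ16.1e, Myc310 and LM1, and potential cannot be told apart from descent here. The model held the 30 libraries of the 10 lines with the subtype (MYAZ, Myc310, LM or LM-LM) as the group, and 13795 genes were tested. Against MYAZ, 12 members were higher and 11 lower in Myc310 (all genes 23.8% and 27.1%), 14 and 18 in LM (30.3% and 30.5%) and 17 and 16 in LM-LM (30.5% and 32.3%), each a lower share than over all genes, with medians of 0.00, -0.01 and 0.01. These 3 contrasts share the MYAZ libraries. Between LM-LM and LM, 0 members passed the threshold by edgeR and 0 by DESeq2 (0.268% and 0.5% of all genes higher and lower by edgeR), and 1 member had an unadjusted p under 0.05. Without the line LM3-LM, 7 members were higher and 4 lower in LM-LM than in LM (all genes 5.03% and 9.98%), and 29 higher and 10 lower than in MYAZ (30% and 32.7%). Without MYAZ12.3i, 22 were higher in Myc310 (23.2%) and 23 in LM (29%), without MYAZ6.6g 20 were lower in Myc310 (25.9%), and without LM2-LM 11 were higher in LM-LM than in MYAZ (28.8%). Cultures of a line are not independent lines: with the counts summed per line, 0 members were higher and 2 lower in Myc310 (4.72% and 4.2% of 16017 genes), against 5 and 2 in the LM (11.3% and 12.4%) and 6 and 2 in the LM-LM subtype (12.8% and 13.6%). Myc310 is then a single sample, assumed to vary like the other subtypes. The LM and LM-LM lines trace back to Myc310, so lines are not independent samples either. In cultures, 12 members were higher and 12 lower without overlap in Myc310 (21.6% and 23.1%), 5 and 4 in LM (13% and 14.5%), 5 and 3 in LM-LM (13.1% and 13.9%), and 0 between LM-LM and LM (0.123% and 0.0652%). Over the 10 lines the range of a member's line mean had a median of 0.41 on the log2 scale, from 0.21 to 0.98, with 0 of 77 members over 1, against a median of 0.51 and 66 of 660 other genes of at least 8 in mean log2 CPM.

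Rps21 (ENSMUSG00000039001, chromosome 2, 180257377 to 180258445, plus strand), a 40S protein, had the widest difference. Its level was 574, 547 and 574 CPM in MYAZ16.1e, 606, 636 and 617 CPM in MYAZ12.3i and 576, 577 and 604 CPM in MYAZ6.6g. It was 373, 378 and 359 CPM in Myc310, and over the LM and LM-LM lines it ran from 331 to 363 CPM and from 312 to 381 CPM. All cultures of the 7 lines of the Myc310 lineage lay below all cultures of the 3 MYAZ lines. The log2 fold change of Rps21 against MYAZ was -0.68 ± 0.0553 (adjusted p = 2.7e-11, edgeR) in Myc310, -0.76 ± 0.0377 (1.5e-16) for the LM subtype and -0.77 ± 0.0377 (8.8e-17) for LM-LM. With counts summed per line it was -0.66, -0.74 and -0.75, the first of which rests on the single Myc310 sample. The adjusted p of the last 2 was 0.00053 and 0.00045 (edgeR), and it treats lines related by descent as separate samples. Other genes of chromosome 2 were also lower in these lines, with a median deviation from the mean of the 10 lines between -0.17 and -0.09 against 0.25 to 0.35 in the MYAZ lines. Rps2 was lower by 0.48, 0.40 and 0.38, but 93.4% of the reads of Rps2 and its pseudogene Rps2-ps10 were counted on the pseudogene, so the level of Rps2 itself is uncertain.

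The 4 X-linked members, Rps4x, Rpl10, Rpl36a and Rpl39, moved together. Rps4x, the X-linked copy of a 40S protein, stood at 1067, 1065 and 1083 CPM in MYAZ16.1e, at 766, 785 and 781 CPM in MYAZ12.3i and at 836, 848 and 850.3 CPM in MYAZ6.6g. It stood at 1232, 1208 and 1216 CPM in Myc310, at 1137 to 1285 CPM in the LM lines and at 1088 to 1363 CPM in LM-LM, so that MYAZ12.3i and MYAZ6.6g were low and MYAZ16.1e lay next to the others. Against MYAZ the log2 fold changes in Myc310, LM and LM-LM were 0.44, 0.41 and 0.45 for Rps4x, 0.47, 0.44 and 0.48 for Rpl36a, 0.45, 0.47 and 0.46 for Rpl39 and 0.39, 0.39 and 0.46 for Rpl10, all past the threshold by edgeR. With counts summed per line, none of these 4 passed it in Myc310, Rpl36a, Rpl39 and Rps4x did in LM, and all 4 did in LM-LM. Of the remaining members, Rpl30 stood at 304 to 329.9 CPM in the MYAZ lines, at 209, 219 and 217 CPM in Myc310 and at 276, 293 and 302 CPM in LM3, with log2 fold changes of -0.53, -0.30 and -0.39 that were not past the threshold with counts summed per line.

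**Figure D4:**
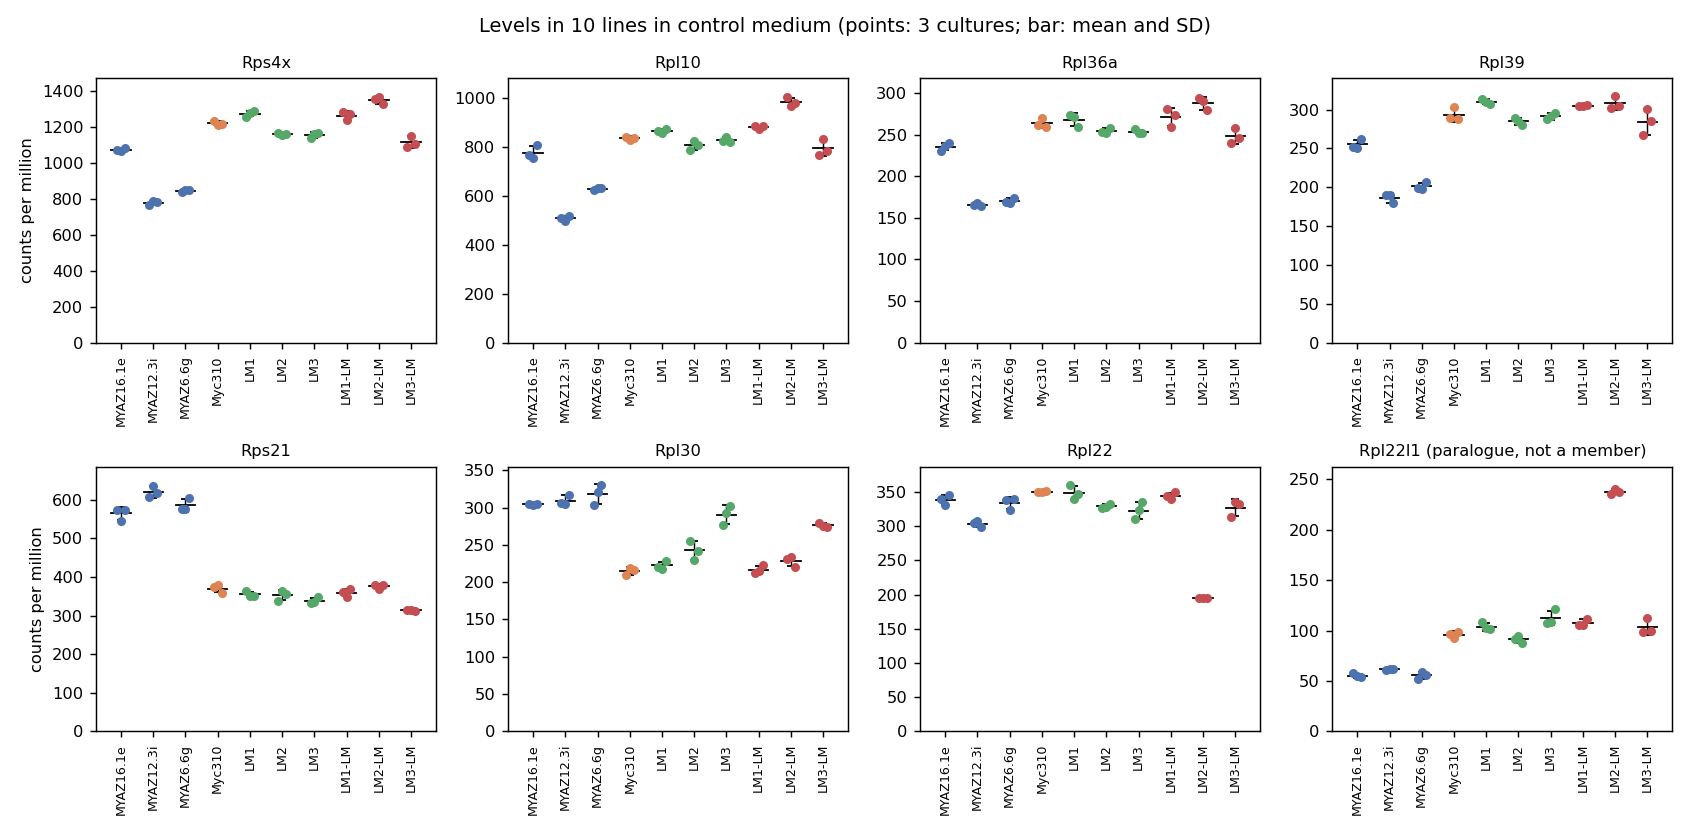
Level in CPM (TMM-scaled) of Rps4x, Rpl10, Rpl36a, Rpl39, Rps21, Rpl30, Rpl22 and the paralogue Rpl22l1 in each of 3 control-medium cultures of the 10 lines, with the line mean. The 4 X-linked genes are lowest in MYAZ12.3i and MYAZ6.6g, Rps21 lies between 547 and 636 CPM in the MYAZ lines and at 381 CPM or less in the others, and in LM2-LM Rpl22 drops to 195 CPM while Rpl22l1 reaches 238 CPM.

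The members followed the other genes of their chromosome. For each of the 12 chromosomes with at least 3 members and each of the 10 lines, the median deviation of the members from the mean of the lines was set beside that of the other genes of the chromosome whose mean log2 CPM was 3 or more. Over these 120 points Pearson's r was 0.83 and Spearman's rho 0.80, as a description, since lines are related by descent and share the reference mean. On chromosome X the members' median was -0.52 in MYAZ12.3i, where that of 257 other genes was -0.65, and -0.40 in MYAZ6.6g (others -0.32). On chromosome 9, which holds Rpl4, Rpl14, Rpl29, Rplp1, Rps25 and Rpsa, both medians were -0.30 in MYAZ16.1e. On chromosome 11, with 7 members, the members and the others stood at 0.21 and 0.14 in MYAZ16.1e and at -0.34 and -0.23 in MYAZ6.6g. On chromosome 15 they stood at -0.21 and -0.17 in Myc310 and at 0.18 and 0.23 in LM3, its derivative. Chromosome 2 went against this in part: the members were at 0.03 in MYAZ12.3i and -0.03 in MYAZ6.6g, where the other genes were at 0.26 and 0.25. The DNA copy number of these lines was not measured here, and its part in these values was not tested.

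**Figure D5:**
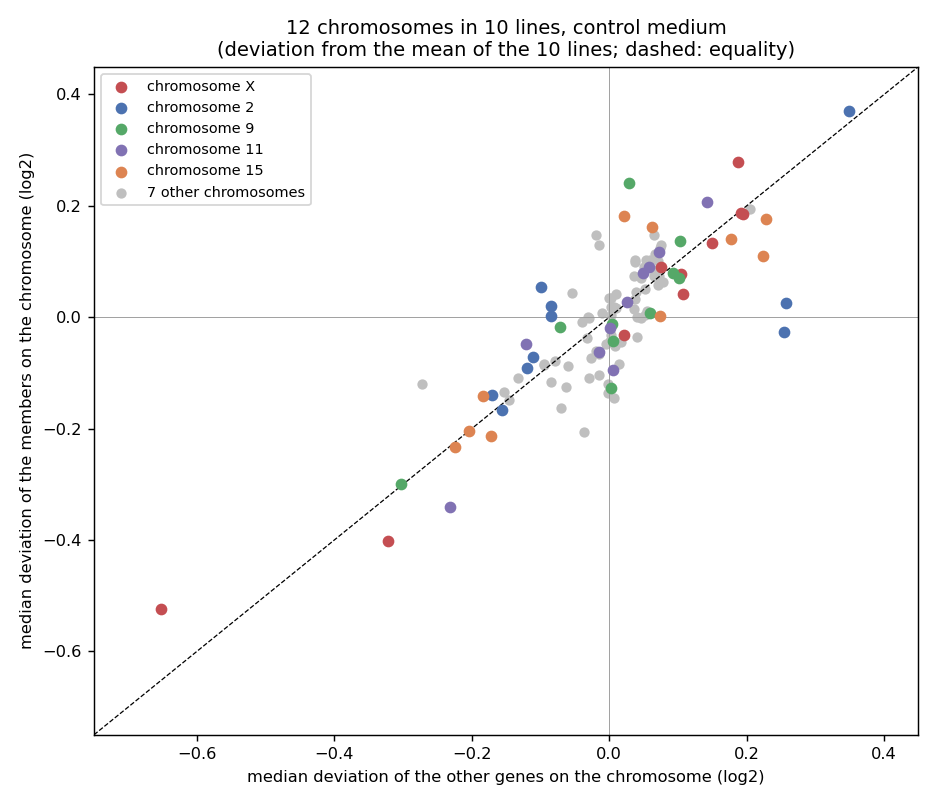
Median log2 deviation from the mean of the 10 lines of the members of a chromosome (vertical axis) against that of the other genes of the same chromosome (horizontal axis), 1 point for each of 12 chromosomes in each of 10 lines, 120 points in all, with a dashed line of equality. Points spread along the line (Pearson's r 0.83), with the members of chromosome X in MYAZ12.3i at -0.52 beside -0.65 for the other genes.

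LM2-LM stood apart from all other lines in a pair of paralogues, which were singled out after their values were seen. Rpl22 (chromosome 4, 152325742 to 152334071, plus strand) binds RNA on the surface of the 60S subunit and is not needed for its making, and Rpl22l1 can take its place there. Rpl22 stood at 195, 195 and 196 CPM in LM2-LM and at 295 to 359.9 CPM in the cultures of the other lines in control medium, NDI1 included. Rpl22l1 stood at 235 to 240.2 CPM in LM2-LM and at 51.8 to 121 CPM in the others, so that the ratio of Rpl22l1 to Rpl22 was 1.22 ± 0.0136 (SD, n = 3) there, while the means of the other lines lay between 0.163 and 0.348. Rpl36al, a paralogue of Rpl36a, was also high in LM2-LM, at 329.6 to 336.8 CPM against 129 to 218 CPM, with a ratio to Rpl36a of 1.16 ± 0.0328 against means of 0.657 to 0.894. This is 1 line with 3 cultures, and no test bears on it. Between LM-LM and LM the log2 fold change of Rpl22 was -0.22 ± 0.0995 (adjusted p = 0.39, edgeR). Rpl22l1 was also lower in the 3 MYAZ lines, with means of 55.3 to 61.4 CPM, than in Myc310, the LM lines, LM1-LM and LM3-LM, with means of 91.1 to 113 CPM.

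In MYAZ12.3i cells labelled NDI1, 1 member was higher and 10 lower than in MYAZ12.3i (8.14% and 9.27% of 12841 genes tested, edgeR, 3 cultures against 3), with a median of -0.01 on the log2 scale. Rpsa went from 2831, 2909 and 2890.2 CPM to 2595, 2558 and 2474 CPM, a log2 fold change of -0.18 ± 0.0263 (adjusted p = 0.00031). Rpl31 went from 492, 500.2 and 468 CPM to 449, 413 and 430.5 CPM (-0.18 ± 0.0345, adjusted p = 0.0024), and Rplp1 from 1327, 1355 and 1330.1 CPM to 1245, 1202 and 1177 CPM (-0.15 ± 0.0277, adjusted p = 0.0018). The groups of these 3 did not overlap. Rps23 was the member that rose, from 521, 544 and 533 CPM to 576, 639.8 and 553 CPM (0.14 ± 0.0417, adjusted p = 0.029). Rpl4, Rpl7, Rpl14, Rps24, Rps25, Rps27 and Rps29 were lower by 0.10 to 0.15. In cultures, 6 members were higher and 14 lower without overlap (18% and 16.7% of all genes), and of the mitochondrial ribosomal protein genes 9 were higher and 0 lower. The counts rested on single cultures: without replicate 3 of NDI1, 18 members were higher (all genes 8.13%), and without replicate 3 of MYAZ12.3i, 4 were lower and 0 higher (5.45% and 4.09%). The comparison sets 1 NDI1 line beside its parent line. Marker lists also moved without overlap. From parent to NDI1 the epithelial sum went from 332 to 346 CPM up to 360.4 to 374 CPM and the fibroblast sum from 94.1 to 98.4 up to 104 to 107 CPM. The endothelial sum went from 16.4 to 19.3 down to 13.8 to 15.5 CPM and the alveolar sum from 15.9 to 18.3 down to 13.5 to 14.5 CPM. Their part in the result was not tested.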

How the data were processed

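Deposited were raw counts, whole numbers for each gene, which the authors made from directional, paired-end reads of polyadenylated RNA with STAR and RSEM in the nf-core RNA-seq pipeline on GRCm38. Pseudogenes and other near-identical copies can take reads from a member, and the counts do not show how such reads were split. All columns were mapped to a line, a medium and a replicate number.

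Counts were analysed with edgeR 4.0.16 and limma 3.58.1 under R 4.3.3: TMM scaling, filterByExpr, and the quasi-likelihood test with Benjamini-Hochberg adjustment over all genes tested, at a threshold of 0.05. Depth was 19517859 to 29019988 counts per library. CPM values were scaled by TMM over all 45 libraries, with a prior count of 2 for logarithms, while each model was scaled over its own libraries. The models held the 24 libraries of the 4 deprived lines (8 groups), the 30 libraries of the 10 lines by subtype, and the 6 libraries of MYAZ12.3i with and without NDI1. Cultures of a line differed by more than sampling noise. The fits were tested on simulated data. Positions and overlaps came from GENCODE mouse release 21 (77 of 77 members found), of which 46 overlap another gene, and start sequences from RefSeq on GRCm38.p6.

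Members named were, for every comparison, the 3 members that rose most and the 3 that fell most, past the threshold and without overlap of the groups, and a fixed set of well-studied members; their values in other comparisons are given beside. The members and lists were chosen with earlier results of these data known. The values of 1 member, which stays in the counts and medians, and of 1 related gene are not reported here. The alternatives were RLE, upper-quartile and total scaling, TMM factors without the members, other filters, DESeq2 1.42.0, the replicate number as a block, pseudogene counts added to the parent, counts summed per line, limma's voom with lines as a random factor, the 6 libraries of a line alone, all 33 control libraries for NDI1, and leaving out each replicate number, culture or line.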

Additional observations from a re-analysis of the deposited data

Results flagged for a closer look

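The responses to deprivation differed between lines, by the interaction test (edgeR, Benjamini-Hochberg adjusted over all genes). Against MYAZ16.1e, 25 members had a higher and 2 a lower response in Myc310 (all genes 19.8% and 20.4%), 39 and 3 in LM1 (26.9% and 25.3%) and 39 and 7 in LM1-LM (28.4% and 26.4%). With total scaling the balance turned, to 4 higher and 19 lower in LM1 (all genes 18.1% and 35.5%) and 5 and 27 in LM1-LM (19.1% and 36.9%), and the median of all genes moved down with it by 0.14 and 0.15. The log2 differences of response in Myc310 were 0.18 for Rpl4, 0.18 for Rps27, 0.16 for Rps15a, -0.17 for Rpl41 and -0.11 for Rps15. In LM1 they were 0.26 for Rpl4, 0.25 for Rps6, 0.25 for Rps15a, -0.38 for Rpl41, -0.31 for Rps15 and -0.12 for Rpl39. In LM1-LM they were 0.27 for Rpl4, 0.25 for Rps6, 0.24 for Rpl3, -0.48 for Rpl41, -0.39 for Rps15 and -0.14 for Rpl39. The summed level of the epithelial marker list was also higher in the deprived than in the control cultures of each of the 4 lines: control cultures summed to between 1133 and 1162 CPM in MYAZ16.1e and deprived ones to between 1340 and 1387 CPM. The same ranges for Myc310 were 1360 to 1376 against 1581 to 1615 CPM, those for LM1 were 1096 to 1124 against 1376 to 1413 CPM, and those for LM1-LM were 1010 to 1056 against 1315 to 1343 CPM. Of the 9 markers in that list, Krt8, Krt18 and Krt19 passed 1 CPM, while the other 6 stayed below it. The alveolar list, most of it Abca3, was lower in deprived cultures of Myc310 (62.6 to 63.6 against 54.2 to 56.3 CPM), LM1 (66.2 against 49.5 to 51.6) and LM1-LM (65.2 to 69.9 against 49.95 to 51.1), and higher in those of MYAZ16.1e (27.9 to 30.6 against 31.4 to 35.7). The endothelial list was also lower in deprived cultures of the first 3, by the widest margin in LM1 (11.7 to 14.4 against 7.17 to 8.72). The fibroblast list was lower in LM1 (15.1 to 17.7 against 10.5 to 11.4) and LM1-LM (57.6 to 63.6 against 26.9 to 29.2) and higher in Myc310 (1.73 to 2.16 against 2.68 to 2.81) and MYAZ16.1e (7.46 to 10.2 against 10.7 to 11.9). The leukocyte list was higher in Myc310 (9.63 to 10.4 against 11.8 to 13.5) and LM1 (9.53 to 10.1 against 11.7 to 13.7) and overlapped in the other two. The part of these lists in the responses was not tested.

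In 3 of 231 groups of 9 cultures (each member in the MYAZ, LM and LM-LM subtypes) a single culture lay far from the others, and each time it was replicate 1 of LM3. Chance gives such a gap in about 1 of 20 groups of 9 independent values, which is more than the 3 of 231 seen here. The 9 cultures are 3 from each of 3 lines, so that rate need not hold for them. Rpl41 stood at 611 CPM there and at 718 CPM in the nearest of the others, a gap of 0.689 of the group's range. For Rpl17 the levels were 587 and 669 CPM (gap 0.64), and for Rps25 495 and 542 CPM (gap 0.637).

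Several pseudogene names outside the set held a large part of the reads counted on the pair of pseudogene and parent. That share was 93.4% for Rps2-ps10, 70.2% for Rps18-ps6, 54.7% for Rpl34-ps1, 53.3% for Rps18-ps5, 44.3% for Rpl3-ps1, 35.7% for Rps7-ps3, 14.3% for Rps23-ps1, 10.4% for Rps18-ps3 and 10.3% for Rpl15-ps3. The levels of Rps2, Rps18, Rpl34, Rpl3, Rps7, Rps23 and Rpl15 are therefore uncertain, because reads of near-identical copies can be counted on either. Rpl27-ps3 varied most between libraries, from 0 to 2122 counts.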

How the results depend on the processing

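The falls of Rpl41, Rps15, Rpl37a, Rpl39, Rpl11 and Rpl38 and the rises of Rpl13a, Rpl12, Rpl4, Rps6 and Rpl3 kept their direction and call under every alternative run for them. Of 680 values over counts and medians of the members, 586 stayed within 1.5 times the main count or within the spread between cultures. With upper-quartile scaling the median was -0.030 in Myc310, 17 members were higher and 35 lower in LM1 (median -0.048) and 16 and 39 in LM1-LM (-0.063); in the interactions 15 were higher in Myc310 (median 0.033), 17 higher and 14 lower in LM1 (0.031) and 18 and 15 in LM1-LM (0.011). With total scaling 4 were higher in MYAZ16.1e, the median was -0.030 in Myc310, 12 and 45 were called in LM1 (-0.088) and 12 and 45 in LM1-LM (-0.11); in the interactions 11 were higher in Myc310 (0.013), 4 and 19 were called in LM1 (-0.029) and 5 and 27 in LM1-LM (-0.058). These scalings lower all genes together, and the cause of their difference from TMM was not tested.

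Signs turned for 15 values, which are given as they stood after the turn: Rplp0 in LM1 with upper-quartile scaling (-0.018), and with total scaling Rplp0 in LM1 (-0.058), Rps3 (-0.025), Rpl5 (-0.0074), Rplp0 (-0.046) and Rplp1 (-0.028) in LM1-LM, the interactions of Rpsa (-0.020), Rps4x (-0.031) and Rplp0 (-0.029) in LM1, and those of Rpsa (-0.00012), Rps3 (-0.029), Rps4x (-0.055), Rpl13a (-0.00024), Rplp0 (-0.017) and Rplp1 (-0.058) in LM1-LM.

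Between subtypes, no filter beyond 1 count gave 10 lower in LM against MYAZ, counts summed per line gave 0 higher and 2 lower in Myc310, 5 and 2 in LM and 6 and 2 in LM-LM, and limma's voom with lines as a random factor 6 and 4, 8 and 7, and 9 and 7. For NDI1 the number higher was 2 with RLE scaling, 3 with total scaling, 5 (17 lower) without a filter, 3 with at least 10 counts in every library, 0 with DESeq2, 4 with pseudogene counts added and 3 with all 33 control libraries. With the pseudogenes counted in, the members' median share was 6.29%.

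Same-numbered cultures did not deviate together (correlations from -0.057 to 0.052), so the numbers pair nothing. With the replicate number as a block, 2 and 44 members were higher and lower in MYAZ16.1e, 22 and 22 in Myc310, 32 and 23 in LM1 and 32 and 25 in LM1-LM, and 3 were higher and 13 lower for NDI1.

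Leaving out replicates, cultures or lines in turn, the number higher ranged from 2 to 6 in MYAZ16.1e (6 without replicate 3 of its controls; median -0.11 to -0.053), and in the interactions from 14 to 33 higher and 0 to 3 lower in Myc310 (median 0.046 to 0.12), 2 to 5 lower in LM1 (0.080 to 0.13) and 3 to 6 lower in LM1-LM. Against MYAZ it ranged from 10 to 22 higher and 6 to 20 lower in Myc310, 11 to 23 and 7 to 25 in LM, and 11 to 29 and 8 to 22 in LM-LM, and between LM-LM and LM from 0 to 7 and 0 to 4. For NDI1 it ranged from 0 to 18 higher and 4 to 16 lower (median -0.048 to 0.022). Members held 402 counts or more in every library; each line has 3 cultures per medium.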
